A study of Rattus norvegicus with 20 samples.

Results

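Rat pups exposed before birth to betamethasone, given spasms with NMDA and treated with saline (BYS) were compared with pups that had neither the hormone nor the spasms (SNS). The 2 groups, chosen by their labels, hold 8 of the 20 samples of the series, 4 BYS and 4 SNS. RNA of the hypothalamic arcuate nucleus was read on 2-colour arrays, and 13280 genes of the 16899 with a named spot had enough values to be tested. BYS mothers received 2 injections of betamethasone, a synthetic glucocorticoid, at 0.4 mg/kg each on gestational day 15, and SNS mothers received saline on that day. Birth was on gestational day 23. BYS pups had spasms triggered by NMDA on days 12, 13 and 15 after birth, with saline as the vehicle of the treatments given to other groups, and SNS pups had saline and no NMDA. All 8 were male Sprague-Dawley pups, and the tissue was taken on postnatal day 15, so BYS tissue was taken on the day of the last trigger. The groups differ in prenatal betamethasone, in NMDA and in spasms, and the parts of these 3 in a difference cannot be told apart from this comparison. Litters were culled to 4 males, and the sources used here do not say which pups shared a litter. The p-values measure the spread between samples of a group, pooled over all 20 samples of the series, and litter could not be entered.

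The arcuate nucleus is a cell group of the basal hypothalamus beside the third ventricle. Its neurons make neuropeptides such as Agrp, Npy and Pomc that govern feeding, and others that govern growth and reproduction. NMDA is an agonist of 1 class of glutamate receptor. Neurons that fire strongly switch on immediate early genes such as Fos within minutes, without new protein synthesis. Glucocorticoids act through the receptor encoded by Nr3c1, which enters the nucleus and turns on genes such as Fkbp5.

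Levels below are log2 intensities with the sample's median subtracted, so that a level of 0 is that of the sample's median gene. Levels of different genes depend on their probes, so percentiles of level, as in the tissue check below, are a rough guide. Differences are BYS minus SNS on the log2 scale, with the fit's SE and n = 4 pups in each group, and every adjusted p is limma's, two-sided, adjusted by Benjamini-Hochberg over the 13280 genes. The tissue label was checked against arcuate transcripts. Agrp and Sst lay at percentile 98.4 of the genes by mean level, Npy at 99.4, Pomc at 97.3, Gal at 94.6, Cartpt at 93.2 and Th at 87.0. Ghrh lay at percentile 68.7 and Kiss1 at 34.8. The mean level of 17 neuron markers was 2.62 to 2.93 in SNS samples and 2.50 to 2.92 in BYS samples, that of 7 pituitary markers -0.34 to 0.28 and 0.13 to 0.37, and that of 10 markers of thalamus, cortex and hippocampus -0.36 to -0.07 and -0.63 to 0.03. In RNA of a whole nucleus, fewer cells of a type and less RNA per cell cannot be told apart.

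The BYS samples varied more over the array surface than the SNS samples. The array was divided into 70 blocks of 38 rows by 17 columns of spots, and each sample's median deviation from the mean of all samples was taken in each block. The SD of these deviations over the blocks was 0.101 to 0.129 in SNS samples, and 0.213, 0.396, 0.204 and 0.402 in BYS replicates 1 to 4. Each BYS sample lay above each SNS sample in this SD, but not above each sample of the other groups, since samples of pups with spasms given ACTH (BYA) reached 0.325. The 4 BYS samples lay on 2 arrays of 1 slide that held no other group, while SNS replicates 1, 3 and 4 shared a slide and replicate 2 lay on another, so slide and group cannot be told apart. Most called genes named below are therefore given as deposited and again after the block medians were subtracted from each sample, called here the local trend removed. SNS replicate 2 is labelled Cy5 but had a value at 44159 spots, within the range of the Cy3 samples (42678 to 44249) and above the other Cy5 samples (34107 to 39968), and its dye label is in doubt.

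**Figure D1:**
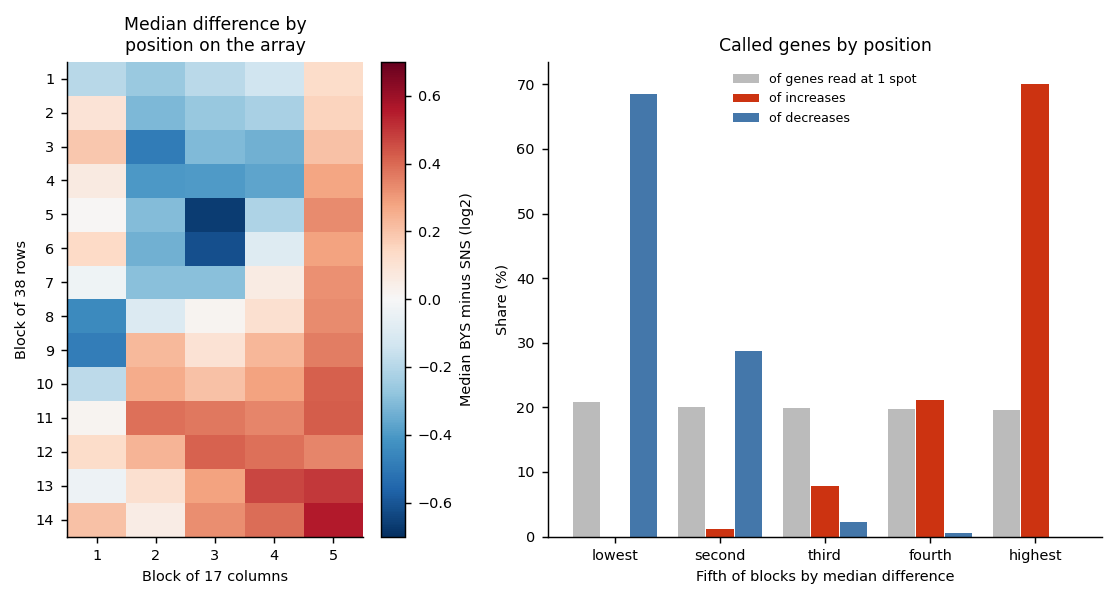
Position of spots on the array and the difference between BYS and SNS. The left panel colours 70 blocks of 38 rows by 17 columns by the median log2 difference, and the right panel gives, for blocks in 5 sets of 14 ordered by that median, the percent of genes read at 1 spot, of increases and of decreases that each set held. Block medians ran from -0.67 to 0.56, and the lowest set held 68.6% of the decreases while the highest held 70.0% of the increases.

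Of the 13280 genes, 1007 (7.58%) were called changed at an adjusted p under 0.05. More genes fell than rose, with 689 lower in BYS (5.19%) and 318 higher (2.39%), and the counts over gene lists below stand beside these 2 shares. Called or not, 7350 of the 13280 genes were higher in BYS, and counts of list members higher in BYS stand beside that. At an unadjusted p under 0.05 the split was nearly even, 1478 lower and 1610 higher. The decreases had a median of -0.83, and 211 of them were beyond a difference of 1. The increases had a median of 0.64, and 21 of them were beyond 1. Among the 10% of genes with the highest mean level 120 fell and 18 rose. With the local trend removed, 199 genes passed (1.5%), 149 lower (1.12%) and 50 higher (0.377%). Both as deposited and with the trend removed, 146 genes passed (1.1%), 137 lower (1.03%) and 9 higher (0.0678%).

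The calls followed position. Of the called genes read by 1 spot, 404 of the decreases (68.6%) and 0 of the increases lay in the 14 blocks of lowest median difference, which held 20.9% of such genes. The 14 blocks of highest median difference held 0 of the decreases and 189 of the increases (70.0%). Of the decreases that passed both ways, 52.8% lay in the 14 lowest blocks and 36.8% in the next 14. The number of spots behind a gene moved with the calls too. Of 9580 genes read by 1 spot, 8.97% were called, of 2518 genes with 2 to 7 spots 5.2%, and of 1182 genes with 8 or more spots 1.44%. How much of the calls follows from the position was not tested beyond the values given here.

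**Figure D2:**
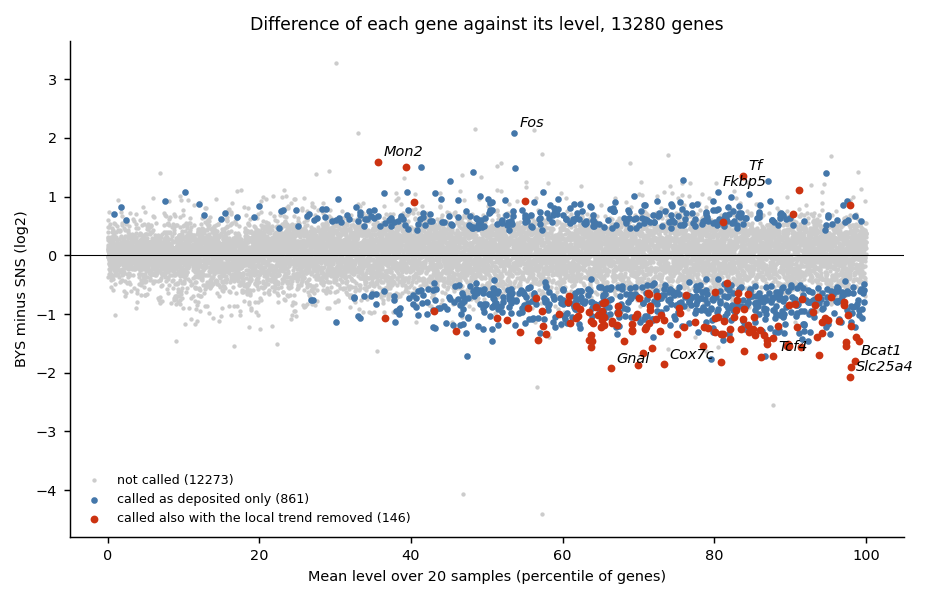
Difference between BYS and SNS against mean level for 13280 genes. The x axis is the percentile of a gene's mean level over the 20 samples and the y axis the log2 difference, with 861 genes called only as deposited, 146 called also with the local trend removed and the genes not called in separate colours. Decreases outnumber increases among the genes of highest level, with 120 against 18 in the top 10%.

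Fos, which encodes a subunit of the AP-1 transcription factor and is the usual marker of recently active neurons, had the largest increase of any called gene. Its level was -0.89, -1.20, -1.04 and -1.45 in SNS replicates 1 to 4, and 1.23, 1.17, 1.90 and -0.44 in BYS replicates 1 to 4. BYS replicate 4 was far below the other BYS samples, yet above each SNS sample. The difference was 2.09 ± 0.59 (adjusted p = 0.0387), and it was 1.96 with the local trend removed (adjusted p = 0.0835). The call rested on most of the samples, since it held in 2 of the 8 fits that left out 1 sample, with differences of 1.63 to 2.63 and adjusted p up to 0.0771. It was lost without any 1 of BYS replicates 1, 2 and 3 and SNS replicates 1, 3 and 4.

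Other immediate early genes were higher in BYS without passing the test. The list held 29 measured genes, of which 1 rose (Fos) and 0 fell. In BYS 25 of the 29 were higher, beside 7350 of the 13280 tested genes. The median difference of the list was 0.41 against 0.05 over all genes. With the local trend removed the median was 0.51, and limma called 0 of them, with 9 at an unadjusted p under 0.05. In 7 of the 29 the BYS samples lay wholly above the SNS samples and in 0 wholly below, beside 6.87% and 7.45% of all genes. Egr4, an early growth response transcription factor of neurons, had levels of -0.69, -0.80, -0.87 and -1.29 in SNS and 1.23, 1.31, 0.86 and -0.66 in BYS. The BYS samples lay above SNS, the fourth by very little, and the difference was 1.57 ± 0.52 (adjusted p = 0.075). Jun, the partner of Fos in AP-1, was at 0.72, 0.64, 0.67 and 1.57 in SNS and at 1.85, 2.37, 1.79 and 1.78 in BYS, a difference of 1.09 ± 0.34 (adjusted p = 0.0578). Egr1, a zinc finger transcription factor read by 11 spots, stood at 0.55 to 0.59 in SNS and at 1.56, 1.67, 2.44 and 0.80 in BYS, with 1.05 ± 0.48 (adjusted p = 0.202). Arc, which regulates AMPA receptor endocytosis at synapses, was at 0.05 to 0.57 in SNS and at 1.20, 1.27, 1.04 and 0.57 in BYS, and the groups met at their edge (0.76 ± 0.25, adjusted p = 0.075). BYS replicate 4 was the lowest BYS sample in each of these 5 genes. The mean level of the list was -0.08 to 0.03 in SNS samples and 0.64, 0.51, 0.81 and 0.02 in BYS samples.

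**Figure D3:**
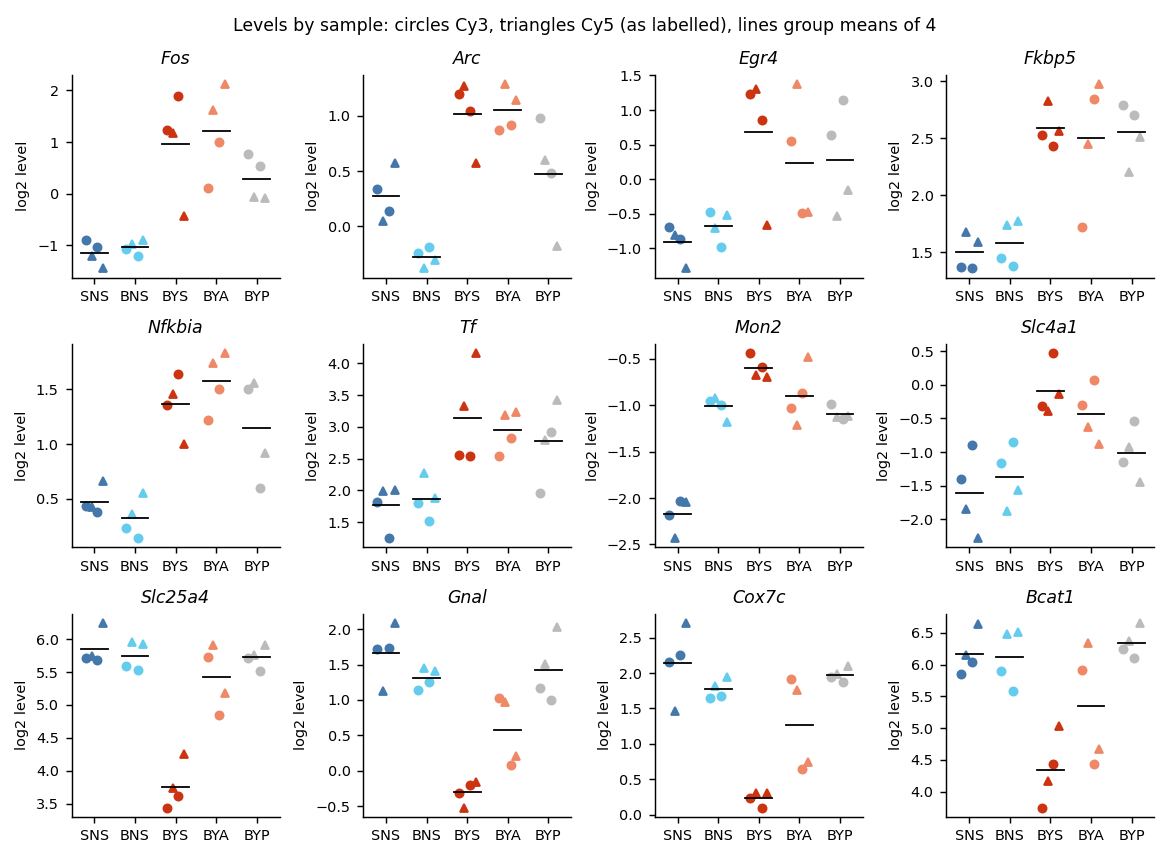
Levels of 12 named genes in each sample of the 5 groups. The y axis is the log2 level relative to the sample's median gene, circles are Cy3 and triangles Cy5 samples as labelled, and lines are group means of 4. BYS replicates 1 to 3 of Fos lie between 1.17 and 1.90 and BYS replicate 4 at -0.44, while the SNS samples lie between -1.45 and -0.89.

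The promoters of Egr4, Nfkbia and Fkbp5 are shown because Egr4, which was not called, belongs to the immediate early list described here, and Nfkbia and Fkbp5 are the 2 called members of the glucocorticoid responsive list. Each window runs from 250 bases before to 50 after the annotated start, is written 5′ to 3′ on the gene's strand, and comes from RefSeq on build GRCr8. Of 12 genes looked up, 9 matched a window. Capitals mark matches, on both strands, to the cyclic AMP response motif TGACGTCA and its shorter form TGACG, the CArG box, the NF-kappaB site, the glucocorticoid response element, AGAACA and TGTTCT with 3 bases between them, and its shorter form TGTTCT. Each full motif also holds its shorter form.
Egr4, chr4:119607768-119608067, minus strand: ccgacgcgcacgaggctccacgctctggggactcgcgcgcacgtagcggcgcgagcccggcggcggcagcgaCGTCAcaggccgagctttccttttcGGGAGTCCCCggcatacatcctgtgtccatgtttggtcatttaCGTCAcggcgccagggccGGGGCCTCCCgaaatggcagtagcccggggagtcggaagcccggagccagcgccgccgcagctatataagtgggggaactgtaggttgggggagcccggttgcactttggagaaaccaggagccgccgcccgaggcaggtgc
Nfkbia, chr6:78597023-78597322, minus strand: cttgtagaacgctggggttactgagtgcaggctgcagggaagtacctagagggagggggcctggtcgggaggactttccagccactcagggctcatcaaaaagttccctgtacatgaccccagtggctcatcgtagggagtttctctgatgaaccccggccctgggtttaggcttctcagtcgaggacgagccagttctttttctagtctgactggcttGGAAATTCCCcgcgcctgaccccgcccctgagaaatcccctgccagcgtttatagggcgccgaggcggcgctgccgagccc
Fkbp5, chr20:6543506-6543805, minus strand: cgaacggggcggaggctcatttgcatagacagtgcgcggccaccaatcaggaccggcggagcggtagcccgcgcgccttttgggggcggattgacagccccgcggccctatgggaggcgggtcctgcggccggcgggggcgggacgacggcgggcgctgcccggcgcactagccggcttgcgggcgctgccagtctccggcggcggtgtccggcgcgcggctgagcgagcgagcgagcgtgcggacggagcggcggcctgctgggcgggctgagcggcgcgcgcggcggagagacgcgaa
The Egr4 window held 2 TGACG matches, which read CGTCA on the strand shown, and 2 NF-kappaB matches. The Nfkbia window held 1 NF-kappaB match, GGAAATTCCC as read on the strand shown. The Fkbp5 window held no match. Among immediate early genes with windows not shown, that of Egr1 held CArG boxes and TGACG matches, and that of Junb a TGACG match. Over all 33469 windows of this length, 21.2% held TGACG, 1.83% TGACGTCA, 1.64% a CArG box, 7.51% an NF-kappaB site, 0.0149% the full glucocorticoid element and 20.7% TGTTCT. The matches are descriptions of the letters and no evidence of binding.

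Among genes of the glucocorticoid response, 2 passed the test in BYS. Fkbp5, a co-chaperone that lowers the affinity of the glucocorticoid receptor for its hormone, was at 1.37, 1.68, 1.36 and 1.59 in SNS and at 2.53, 2.83, 2.43 and 2.57 in BYS. Every BYS sample lay above every SNS sample, and the difference was 1.09 ± 0.25 (adjusted p = 0.0122). It held without each single sample, with 1.04 to 1.12, but not without the array of BYS replicates 1 and 2 (adjusted p = 0.0853), and it was 0.86 with the local trend removed (adjusted p = 0.0585). Nfkbia, the inhibitor that keeps NF-kappaB in the cytoplasm and a known target of the glucocorticoid receptor, was at 0.43, 0.42, 0.38 and 0.66 in SNS and at 1.36, 1.46, 1.64 and 1.00 in BYS. The groups did not overlap, and Nfkbia rose by 0.90 ± 0.23 (adjusted p = 0.025). The call was lost without SNS replicate 1 (adjusted p = 0.0571) and with the local trend removed (0.61, adjusted p = 0.23).

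Of 25 glucocorticoid responsive genes measured, 2 rose, 0 fell and 21 were higher in BYS, with a median of 0.52 against 0.05 over all genes. The median was 0.57 with the local trend removed, where 1 gene passed, the kinase Map3k6. In 9 of the 25 the BYS samples lay wholly above SNS, and in 0 wholly below, beside 6.87% and 7.45% of all genes. The mean level of the list was 0.43 to 0.52 in SNS samples and 1.15, 1.08, 1.13 and 0.66 in BYS samples, so each BYS sample lay above each SNS sample. Mt1, a metallothionein that binds zinc and copper, differed by 1.08 (adjusted p = 0.072). Cebpb, a bZIP transcription factor, differed by 1.06 (adjusted p = 0.088). Zbtb16, a zinc finger repressor, differed by 1.00 (adjusted p = 0.075). Tsc22d3, which encodes the glucocorticoid-induced leucine zipper, went the other way in the values as deposited. Its level was 2.78 to 3.06 in SNS and 1.66, 1.76, 2.53 and 2.79 in BYS, a difference of -0.74 ± 0.29 (adjusted p = 0.13) that was 0.01 with the local trend removed. Nr3c1, the glucocorticoid receptor, differed by -0.47 ± 0.19 (adjusted p = 0.147). Nr3c2, the mineralocorticoid receptor, differed by 0.88 (adjusted p = 0.199).

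Tf, the iron carrier transferrin, made in the brain chiefly by oligodendrocytes, was the myelin lineage gene that passed both ways. It was at 1.82, 1.99, 1.25 and 2.01 in SNS and at 2.55, 3.33, 2.54 and 4.16 in BYS. The BYS samples all lay above SNS, with replicate 4 highest, and the difference was 1.35 ± 0.28 (adjusted p = 0.00529), or 1.33 with the local trend removed (adjusted p = 0.0171). The call held without each single sample, with 1.10 to 1.53. It was lost with slide in place of array as the random block, and in a fit of BYS and SNS samples alone. It was also lost in Cy3 or Cy5 samples alone, and by the methods' t-test after adjustment. Of 20 oligodendrocyte and myelin markers, 1 rose, 0 fell and 17 were higher in BYS, with a median of 0.46, and of 0.49 with the local trend removed. The mean level of the list overlapped between the groups, at 0.08, -0.31, -0.17 and 0.39 in SNS and at 0.72, 0.32, 0.14 and 0.80 in BYS. Mog, a protein of the outer myelin surface, differed by 1.36 ± 0.60 (adjusted p = 0.176). Mbp, the myelin basic protein that compacts the sheath, differed by -0.71 ± 0.32 (adjusted p = 0.188), so the members did not share a direction. Of 12 precursor markers, 1 rose, the matrix proteoglycan Vcan (0.52), and 1 fell, the transcription factor Olig2 (-0.86), taken from the 1 of its 2 spots with a value in all samples. With the local trend removed Vcan was at 0.52 (adjusted p = 0.0561) and Olig2 at -0.13 (adjusted p = 0.834), and neither passed.

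Mon2, a Golgi-associated protein of endosome to Golgi traffic, had the smallest adjusted p of the increases. It was at -2.18, -2.43, -2.03 and -2.04 in SNS and at -0.44, -0.67, -0.59 and -0.69 in BYS, with the groups far apart. The difference was 1.60 ± 0.16 (adjusted p = 1.85e-05), or 1.20 with the local trend removed (adjusted p = 0.000344). Mon2 was also higher than SNS in the other groups, which share the SNS samples, with 1.18 in pups with betamethasone and no spasms (BNS, adjusted p = 0.0129), 1.30 in pups with spasms given ACTH (BYA, adjusted p = 0.0033) and 1.10 in those given PMX53 (BYP, adjusted p = 0.0331). Slc4a1, the anion exchanger of the red cell membrane, was at -1.40, -1.85, -0.89 and -2.28 in SNS and at -0.31, -0.39, 0.47 and -0.14 in BYS. The groups did not overlap, and Slc4a1 rose by 1.51 ± 0.28 (adjusted p = 0.00259; 1.22 and 0.0197 with the local trend removed). Among 11 blood markers it was the 1 called, and their mean level was 0.13 to 0.69 in SNS and 0.26 to 1.18 in BYS. Whether blood in the tissue had a part in it was not tested.

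The other 6 genes that rose both ways were Arl2bp, Eif3a, Flot2, Lfng, Ppp1r10 and Rbm38, and Flot2, Lfng, Ppp1r10 and Rbm38 are named for that, after their values were seen. Their adjusted p with the local trend removed was 0.0235 to 0.0422. With the trend removed in smaller blocks Rbm38 passed, and Arl2bp, Eif3a, Flot2, Lfng and Ppp1r10 did not. With slide in place of array as the random block, Lfng and Rbm38 passed, and Arl2bp, Eif3a, Flot2 and Ppp1r10 did not. Rbm38, an RNA-binding protein induced by p53, was at -0.17, -0.55, -0.05 and -0.29 in SNS and at 0.51, 0.78, 0.71 and 0.55 in BYS (0.92, adjusted p = 0.00304). Lfng, a glycosyltransferase that modifies Notch, rose by 0.90 (adjusted p = 0.00626). Flot2, a scaffold protein of membrane microdomains, rose by 0.86 (adjusted p = 0.0143). Eif3a, the largest subunit of translation initiation factor eIF3, rose by 0.70 (adjusted p = 0.017), and Ppp1r10, a nuclear regulator of protein phosphatase 1, by 0.57 (adjusted p = 0.0209). In Rbm38, Lfng and Flot2 the groups did not overlap. Arl2bp, which binds the small GTPase Arl2, rose by 1.12 (adjusted p = 0.0378) with SNS levels from 1.85 to 3.75 that reached into the BYS range, and lost its call without any 1 of BYS replicates 2 and 4 and SNS replicate 1 (adjusted p up to 0.117). Flot2, Eif3a and Ppp1r10 lost theirs without the array of BYS replicates 1 and 2 (adjusted p 0.1, 0.0864 and 0.0861).

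Several larger increases passed only in the values as deposited. Mcl1, a survival protein of the Bcl-2 family, was at -1.95, -0.64, -1.23 and -1.01 in SNS and at 0.11, 0.13, 0.22 and -0.29 in BYS, and rose by 1.26 ± 0.25 (adjusted p = 0.00368; 0.144 with the local trend removed). F3, the tissue factor that starts coagulation, was at 0.25, 1.37, 1.19 and 1.33 in SNS and at 2.24, 3.01, 2.05 and 1.77 in BYS. It rose by 1.28 ± 0.32 (adjusted p = 0.0194), which was lost without SNS replicate 1 (adjusted p = 0.0809) and with the local trend removed (adjusted p = 0.129). Cables1, an adaptor between cyclin-dependent kinases and other kinases, rose by 1.08 ± 0.20 (adjusted p = 0.00252; 0.0527 with the trend removed). Klhl17, a Kelch repeat protein, rose by 1.08 (adjusted p = 0.0217; 0.113 with the trend removed). In all 4 the groups did not overlap. In some others the spread lay within SNS. Zdhhc20, a palmitoyltransferase (SNS -0.19, 0.06, -2.25 and -2.02), Cmpk1, a nucleoside monophosphate kinase (3.81, 4.01, 2.51 and 2.21), and Cfap36, a cilia protein (2.85, 2.84, 0.87 and 1.12), were low in SNS replicates 3 and 4, which shared an array. Each was read by 1 spot, Cmpk1 at row 460 and Zdhhc20 at row 462 of column 57, and Cfap36 at row 504 of column 59. Whether position had a part in these low values was not tested. Mgat2, an enzyme that builds complex N-glycans, had SNS replicate 2 at -3.50 against -1.07 to -0.94 in the rest. Their differences of 1.26 to 1.51 passed (adjusted p 0.0201 to 0.0456), as deposited. Those of Zdhhc20, Cfap36 and Mgat2 were lost in 2 to 5 of the 8 fits without a sample, each of them without SNS replicate 4 (adjusted p over these fits up to 0.0509, 0.0637 and 0.0825). Without SNS replicate 2 the difference of Mgat2 was 0.77, against 1.51 with it. With the local trend removed none of the 4 passed (adjusted p 0.198 to 0.281).

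The decreases were led by Slc25a4, the adenine nucleotide carrier that exchanges ADP and ATP across the inner mitochondrial membrane. Its level was 5.71, 5.74, 5.69 and 6.25 in SNS and 3.44, 3.73, 3.61 and 4.25 in BYS. All BYS samples lay more than a log2 unit below all SNS samples, with a difference of -2.06 ± 0.20 (adjusted p = 1.58e-05), and of -1.68 with the local trend removed (adjusted p = 0.000942). Cox7c, a small subunit of cytochrome c oxidase, was at 2.15, 1.47, 2.25 and 2.71 in SNS and at 0.23, 0.30, 0.10 and 0.30 in BYS. It fell by 1.85 ± 0.27 (adjusted p = 0.000359), and by 1.45 with the local trend removed (adjusted p = 0.00261). Ndufv1, a flavoprotein subunit of complex I, was at 5.09 to 5.67 in SNS and at most at 4.35 in BYS. It fell by 1.47 ± 0.16 (adjusted p = 4.83e-05), and by 0.75 with the local trend removed (adjusted p = 0.0278). Atp5po, a stalk subunit of ATP synthase, fell by 1.46 (adjusted p = 0.000125; 0.0393 with the trend removed), and Ndufa2, a subunit of complex I, by 1.32 (adjusted p = 5.55e-05; 0.0794 with the trend removed). Slc25a4, Cox7c, Ndufv1, Atp5po and Ndufa2 passed with slide in place of array as the random block, but not with the trend removed as well.

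These members did not speak for the whole respiratory chain. Of 72 respiratory chain and ATP synthase genes, 6 fell and 0 rose, beside 5.19% and 2.39% of all genes, and 30 were higher in BYS. The median difference was -0.11, and -0.06 with the local trend removed, where 3 fell and 0 rose. Of 31 mitochondrial carriers, 3 fell, Slc25a4 among them, and 1 rose, with a median of -0.03. Slc25a38, which carries glycine for haem synthesis, fell by 1.36 (adjusted p = 0.000174; 0.0416 with the trend removed). Mrps7, a protein of the small mitochondrial ribosomal subunit, fell by 1.73 (adjusted p = 0.00126), and Noa1, a GTPase of mitochondrial ribosome assembly, by 1.66 (adjusted p = 0.000359), and both passed with the trend removed (adjusted p 0.0247 and 0.0225).

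Of 27 genes of branched-chain amino acid breakdown and amino acid sensing, 4 fell and 1 rose, beside 5.19% and 2.39% of all genes. Bcat1, the cytosolic aminotransferase that starts their breakdown, was at 5.86, 6.15, 6.04 and 6.64 in SNS and at 3.75, 4.17, 4.43 and 5.04 in BYS. The groups did not overlap, and it fell by 1.80 ± 0.32 (adjusted p = 0.002; 0.0194 with the local trend removed), a call lost without the array of BYS replicates 1 and 2 (adjusted p = 0.0507). Mccc1, a subunit of the leucine pathway enzyme methylcrotonyl-CoA carboxylase, was at 2.42 to 2.69 in SNS and 1.09 to 1.52 in BYS. It fell by 1.26 ± 0.12 (adjusted p = 1.27e-05), and by 0.51 with the trend removed (adjusted p = 0.0422). Eif2ak4, the kinase that senses uncharged tRNA when amino acids run short, fell by 1.57 (adjusted p = 0.000502; 0.0221 with the trend removed). Bckdk, the kinase that inhibits the branched-chain ketoacid dehydrogenase, fell by 0.54 (adjusted p = 0.0352) but was at 0.0396 with the trend removed in smaller blocks, and Bckdhb, a subunit of that dehydrogenase, rose by 0.72 (adjusted p = 0.0266). With the trend removed, Bckdk was at -0.07 (adjusted p = 0.883) and Bckdhb at 0.68 (adjusted p = 0.0537). As deposited, the call of Bckdk was lost without any 1 of BYS replicates 1 and 2 and SNS replicates 1 and 3 (adjusted p up to 0.0862), and that of Bckdhb without BYS replicate 2 or SNS replicate 1 (adjusted p up to 0.0925). The median of the 27 was -0.00, with 13 members higher in BYS, and of -0.14 with the trend removed.

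The remaining large decreases were of varied function. Gnal, the G protein alpha subunit that couples dopamine and odorant receptors to adenylyl cyclase, was at 1.72, 1.13, 1.74 and 2.09 in SNS and at -0.32, -0.52, -0.20 and -0.16 in BYS. The groups lay far apart, and it fell by 1.92 ± 0.28 (adjusted p = 0.000331; 0.00903 with the local trend removed). Gnal was read by 1 spot at row 251 of column 33, close to the 1 spot of Slc25a4 at row 249 of column 32. The genes given below in this paragraph were read by 1 spot each, within rows 134 to 227 and columns 32 to 47. Cox7c and Bcat1, given above, were also read by 1 spot each, at row 168 of column 33 and row 191 of column 28. Gnal and Slc25a4 passed also with the trend removed in smaller blocks. A part of position in these decreases was not tested beyond the removal of the trend. Ap3d1, the delta subunit of the AP-3 adaptor that sorts cargo to lysosomes and synaptic vesicles, was at 5.61, 5.96, 5.57 and 6.16 in SNS and at 3.32, 3.86, 3.88 and 4.57 in BYS, and fell by 1.91 ± 0.22 (adjusted p = 4.93e-05; 0.00223 with the trend removed). Tcf4, a basic helix-loop-helix factor of neuronal development, was at 3.17 to 3.84 in SNS and at most at 2.05 in BYS. It fell by 1.71 ± 0.17 (adjusted p = 1.63e-05), and by 0.96 with the trend removed (adjusted p = 0.00149). Fam120b, a coactivator of PPAR-gamma, fell by 1.87 (adjusted p = 0.000502; 0.0337 with the trend removed). Naa35, a subunit of the N-terminal acetyltransferase NatC, fell by 1.62 ± 0.20 (adjusted p = 0.00011; 0.000181 with the trend removed). Ctsl, a lysosomal cysteine protease, fell by 1.69 (adjusted p = 0.000166; 0.0247 with the trend removed). Cbln1, a secreted organiser of synapses, fell by 1.71 (adjusted p = 0.0161), but not with the trend removed (-1.19, adjusted p = 0.117) or without the array of BYS replicates 1 and 2 (adjusted p = 0.112).

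Genes of protein synthesis and processing were called in both directions. Of 71 ribosomal proteins 7 fell and 0 rose, beside 5.19% and 2.39% of all genes, with a median of -0.07, and 1 fell with the local trend removed, Rpl18 of the large subunit. Rpl18 was at 5.82 to 6.41 in SNS and 4.26 to 5.05 in BYS, and fell by 1.38 (adjusted p = 6.28e-05; 0.0128 with the trend removed). It did not pass with the trend removed in smaller blocks. Of 44 translation factors 4 rose and 3 fell. Eif1a, of the complex that scans for the start codon, was at 0.91 to 1.19 in SNS and -0.36 to 0.03 in BYS and fell by 1.15 ± 0.16 (adjusted p = 0.000194; 0.00096 with the trend removed). Of 28 N-glycosylation genes 4 fell and 1 rose. Tusc3, a subunit of the oligosaccharyltransferase that puts sugar chains on proteins, fell by 1.55 ± 0.31 (adjusted p = 0.00481; 0.0421 with the trend removed). Dnajb9, an endoplasmic reticulum co-chaperone, fell by 1.21 (adjusted p = 0.00196; 0.0159 with the trend removed).

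At synapses few genes passed. Stx1a, a SNARE protein of vesicle fusion, was at 4.88, 5.41, 5.16 and 5.64 in SNS and at 4.23, 4.93, 3.61 and 4.18 in BYS, with BYS replicate 2 inside the SNS range. It fell by 1.01 ± 0.22 (adjusted p = 0.00764; 0.0247 with the local trend removed), and not without the array of BYS replicates 3 and 4 (adjusted p = 0.0777). Gad1, the main enzyme of GABA synthesis, was at 4.61, 4.92, 4.53 and 4.59 in SNS and at 3.15, 3.09, 4.54 and 4.02 in BYS. The low values lay on the array of BYS replicates 1 and 2, and BYS replicate 3 was within the SNS range. Gad1 fell by 0.98 ± 0.29 (adjusted p = 0.0462), was at -0.65 with the trend removed (adjusted p = 0.215), and passed in 1 of the 8 fits without a sample, that without BYS replicate 3. Gabrb1, a GABA-A receptor beta subunit, was at 2.86 to 3.52 in SNS and 1.39 to 2.42 in BYS and fell by 1.33 ± 0.25 (adjusted p = 0.00271; 0.0985 with the trend removed). Of 13 GABA receptor genes Gabrb1 was the 1 called, and of 17 genes of GABA synthesis and transport 2 fell, Gad1 and the autophagy protein Gabarapl1 (-0.62, and -0.18 with the trend removed, adjusted p = 0.669). Slc32a1, the vesicular GABA transporter, differed by 0.31. Of 24 glutamate receptor genes limma called 0, with 3 at an unadjusted p under 0.05 and a median of 0.05. Of 18 dopaminergic genes 1 fell, of 18 cholinergic genes 1 fell, and of 15 serotonergic genes limma called 0, with 0 at an unadjusted p under 0.05 and 2 by the methods' t-test before adjustment.

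**Figure D4:**
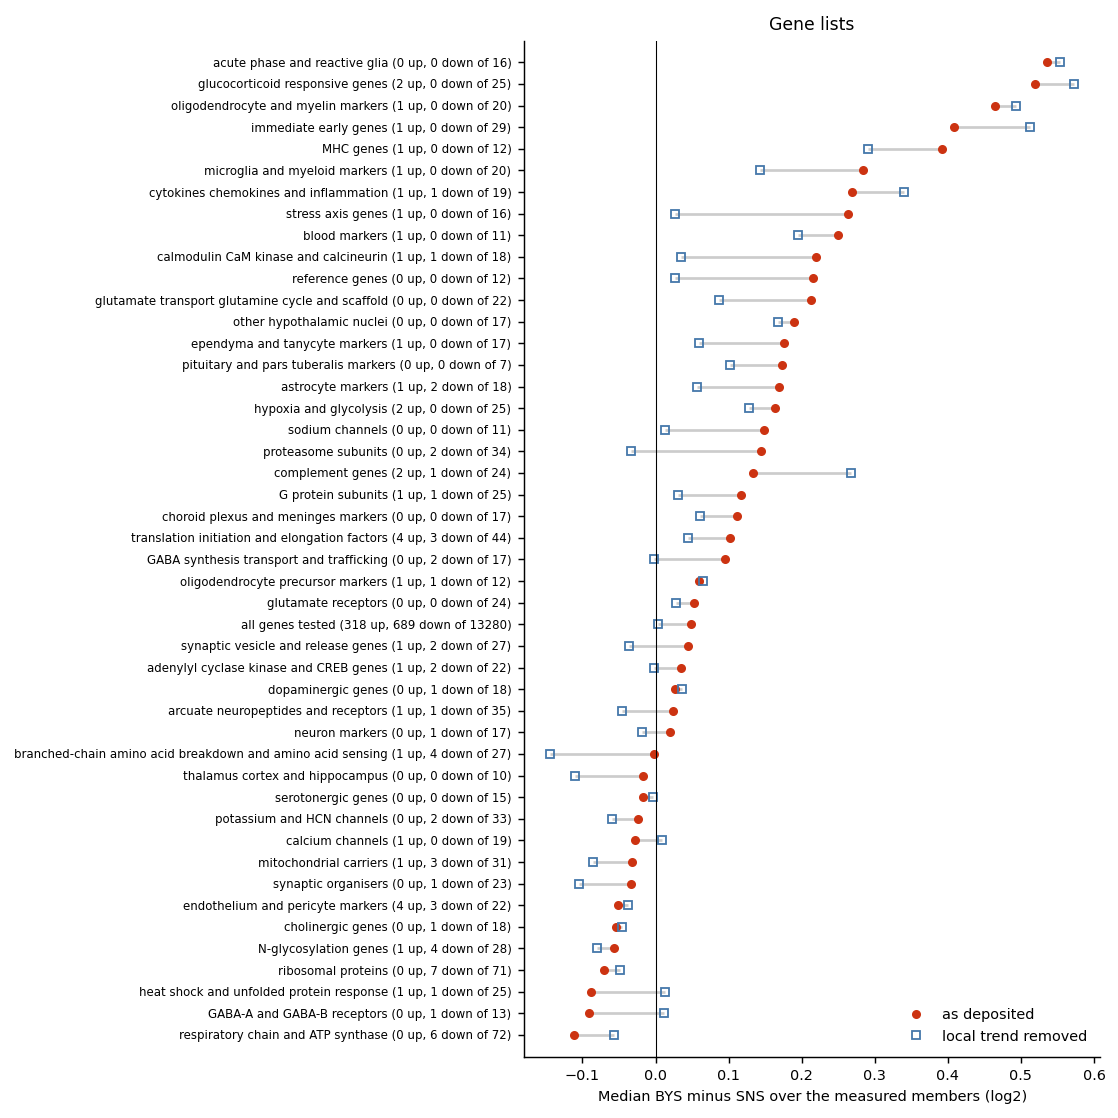
Median difference of gene lists between BYS and SNS. The x axis is the median log2 difference over the measured members of each of 45 lists and of all genes, as deposited (filled circles) and with the local trend removed (open squares), with the counts called in each direction beside the name. The highest medians are those of the acute phase (0.54), glucocorticoid (0.52), oligodendrocyte (0.46), immediate early (0.41) and MHC (0.39) lists, against 0.05 over all genes. The lowest is that of the respiratory chain (-0.11), and ribosomal proteins lie at -0.07.

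The neuropeptide genes that define the arcuate nucleus did not pass. Agrp, the appetite-raising antagonist of melanocortin receptors, was at 5.27, 5.99, 5.71 and 5.33 in SNS and at 5.19, 4.86, 5.33 and 4.76 in BYS, with overlapping groups (-0.55 ± 0.27, adjusted p = 0.232; -0.07 with the local trend removed). Pomc, the precursor of alpha-MSH and ACTH, was at 4.35, 4.93, 4.57 and 4.19 in SNS and at 4.43, 4.76, 4.89 and 5.11 in BYS (0.26 ± 0.23, adjusted p = 0.543). Npy, which raises feeding and was read by 11 spots, was at 5.88 to 6.63 in SNS and 5.83 to 6.67 in BYS. Cartpt, an appetite-lowering peptide of Pomc neurons, differed by 0.73 ± 0.34 (adjusted p = 0.206). Of 35 arcuate peptide and receptor genes 1 rose and 1 fell, with a median of 0.02, and with the local trend removed limma called 0, with 3 at an unadjusted p under 0.05. Sstr2, a somatostatin receptor, was at -0.19 to -0.09 in SNS and 0.27 to 0.52 in BYS, and rose by 0.54 ± 0.15 (adjusted p = 0.0342). Pcsk2, a convertase that cleaves prohormones, was at 0.49 to 0.89 in SNS and -0.23 to 0.06 in BYS, and fell by 0.77 ± 0.17 (adjusted p = 0.0103). Their adjusted p with the local trend removed were 0.305 and 0.429. The call of Sstr2 was lost without any 1 of BYS replicates 2 and 3 and SNS replicates 1, 3 and 4 (adjusted p up to 0.0918).

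Glial, immune and vessel genes gave scattered calls. Of 16 acute phase and reactive glia genes limma called 0, with 2 at an unadjusted p under 0.05, while 15 were higher in BYS and 6 lay wholly above SNS, where 6.87% of all genes did, with a median of 0.54 and of 0.55 with the local trend removed. Their mean level was -0.17, -0.15, -0.43 and -0.49 in SNS and 0.70, 0.88, 0.16 and 0.06 in BYS, with replicates 1 and 2 of BYS, which shared an array, highest. Gfap, the intermediate filament of astrocytes, was at -0.20 to 0.05 in SNS and 0.48, 1.02, 0.35 and 0.77 in BYS (0.69 ± 0.46, adjusted p = 0.399). Hspb1, a small heat shock protein, differed by 1.58 (adjusted p = 0.06). Of 24 complement genes 2 rose, the subunit C1qc (0.86, adjusted p = 0.0486) and the inhibitor Cd59b (0.62), and 1 fell, C8g of the terminal complex (-0.87). With the local trend removed C1qc was at 0.27 (adjusted p = 0.629), Cd59b at 0.27 (adjusted p = 0.362) and C8g at -0.40 (adjusted p = 0.21), and limma called 0 of the 24, with 4 at an unadjusted p under 0.05. As deposited, the call of C1qc was lost without any 1 of BYS replicates 2 and 4 and SNS replicates 1 and 4 (adjusted p up to 0.106). C5ar1, the C5a receptor that PMX53 blocks, lay at percentile 9.59 of level and differed by 1.00 ± 0.31 (adjusted p = 0.0539). Ccl3, a macrophage chemokine, was at 0.41, 0.53, -2.08 and -2.96 in SNS and at 2.05, 1.70, 1.91 and -0.14 in BYS (2.13 ± 0.80, adjusted p = 0.114), and BYS replicate 4 lay among the SNS samples. The mean level of 20 microglial markers was 0.36 to 0.64 in SNS and 0.49 to 0.88 in BYS, and 1 of them rose.

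Of 18 astrocyte markers 1 rose and 2 fell. Slc7a10, a transporter of small neutral amino acids, fell by 1.30 ± 0.18 (adjusted p = 0.000239; 0.162 with the local trend removed), and Agt, the angiotensin precursor, by 1.02 (adjusted p = 0.0211; 0.372 with the trend removed), while the water channel Aqp4 rose by 0.70 (adjusted p = 0.0479; 0.0691 with the trend removed). Of 22 endothelial and pericyte markers 4 rose and 3 fell, beside 2.39% and 5.19% of all genes, and with the trend removed limma called 0, with 5 at an unadjusted p under 0.05. Esam, an adhesion molecule of endothelial junctions, rose by 0.94, and Vtn, made by pericytes, fell by 0.95 (adjusted p with the trend removed 0.169 and 0.3). The pericyte markers called did not share a direction. Abcc9 differed by 0.75 (adjusted p = 0.0274), Rgs5 by -0.65 (adjusted p = 0.0286) and Kcnj8 by -0.55 (adjusted p = 0.0484). Their calls held in 5, 5 and 3 of the 8 fits without a sample, in that order. Slc2a1, the glucose transporter of the blood-brain barrier, rose by 0.43 ± 0.13 (adjusted p = 0.0441; 0.093 with the trend removed) over 10 spots that ranged from -0.58 to 0.95. The calls of Aqp4 and Slc2a1 held in 2 and 3 of the 8 fits without a sample (adjusted p up to 0.163 and 0.0898), and both were lost without BYS replicates 2 or 4 or SNS replicate 4. Those of Vtn and Agt were lost without SNS replicate 1 (adjusted p = 0.0762) and without BYS replicate 2 (adjusted p = 0.05), in that order. Of 12 reference genes limma called 0, with 1 at an unadjusted p under 0.05 and a median of 0.22 as deposited and 0.03 with the trend removed, and Actb, cytoskeletal actin, differed by 0.16 (adjusted p = 0.648).

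Genes read by 8 or more spots, which lie at different places on the array, show how far copies of 1 gene differed. Over the 1120 such genes with complete spots, the SD of the difference over the copies had a median of 0.422, and of 0.250 with the local trend removed. The copies varied more in BYS samples, with a median SD of 0.457 against 0.271 in SNS, and BYS was the wider in 957 of the 1120. Among genes with 8 or more spots there were 17 calls, 1 higher (Slc2a1) and 16 lower, from -0.84 to 0.43. Of these, 4 also passed with the trend removed and are named after their values were seen. Ppm1l, a protein phosphatase of stress kinase pathways, was at 1.56, 1.62, 1.47 and 1.74 in SNS and at 0.81, 1.12, 0.81 and 0.88 in BYS, and fell by 0.69 ± 0.13 (adjusted p = 0.00324; 0.00808 with the trend removed), over 11 spots from -2.08 to 0.35, the last of these the brightest spot. Bex1, an adaptor of neurotrophin signalling, was at 4.87 to 5.26 in SNS and 3.84 to 4.68 in BYS, and fell by 0.84 ± 0.17 (adjusted p = 0.00486; 0.0235 with the trend removed) over 10 spots from -1.90 to 0.56. Sem1, a subunit of the proteasome lid, fell by 0.71, and Wdr31, a WD repeat protein, by 0.64 (adjusted p with the trend removed 0.0497 and 0.0354). In Ppm1l and Bex1 the groups did not overlap, though single spots lay on both sides of 0. Bex1 and Wdr31 lost their calls without the array of BYS replicates 1 and 2 (adjusted p 0.0769 and 0.0679).

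The other groups bear on how these genes stood outside BYS, and share the SNS samples, the dyes and the fit with it. The median over the 15 genes of largest decrease, each relative to its SNS mean, was -1.99, -1.89, -1.70 and -1.45 in BYS replicates 1 to 4. It was -0.32 to 0.06 in BNS and -0.19 to 0.05 in BYP, and in BYA it was -0.08, 0.07, -1.16 and -1.10. BYA replicates 3 and 4 shared an array, and their block SDs were 0.181 and 0.325 against 0.118 and 0.121 in BYA replicates 1 and 2. The median over the 15 genes of largest increase was 1.18 to 1.43 in BYS, 0.51 to 0.76 in BNS, 0.88 to 1.43 in BYA and 0.83 to 1.02 in BYP. Both sets were chosen by BYS minus SNS, so their BYS medians follow from the choice. Choosing increases this way also takes in genes with low SNS samples, such as Mgat2 and Zdhhc20, which sets every other group above SNS. Whether the values in BNS, BYA and BYP are a response was not tested. Against SNS the same fit called 1 gene in BNS (0.00753%), 3 in BYA (0.0226%) and 2 in BYP (0.0151%), and BYS against BNS called 2061 (15.5%). Fos differed from SNS by 0.09 in BNS, 2.34 in BYA (adjusted p = 0.218) and 1.42 in BYP (adjusted p = 0.39). Fkbp5 differed by 0.08 in BNS, 1.00 in BYA (adjusted p = 0.218) and 1.05 in BYP (adjusted p = 0.39), and was called in none of them. Slc25a4 differed by -0.07 in BNS, -0.40 in BYA and -0.09 in BYP, and Gnal by -0.31, -1.05 and -0.20. The adjusted p of Slc25a4 and Gnal in these groups were 0.233 to 0.909.

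**Figure D5:**
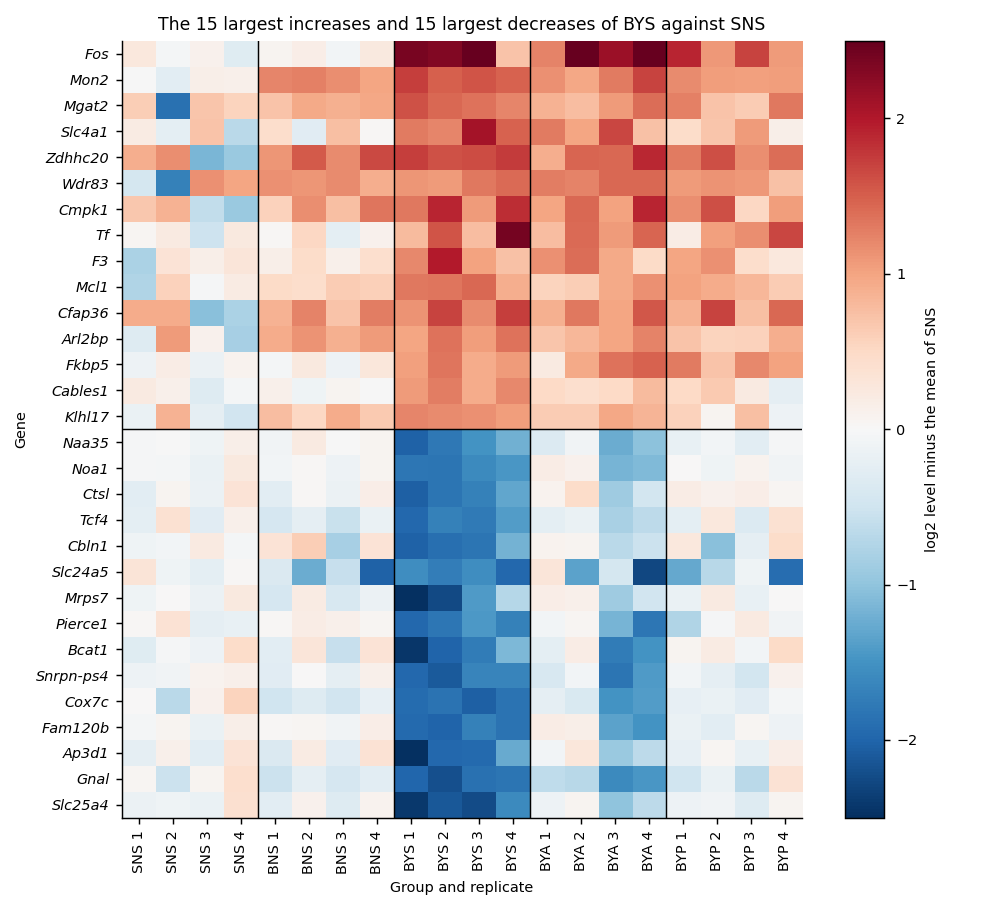
Levels of the 15 largest increases and 15 largest decreases of BYS against SNS in all 20 samples. Rows are genes, columns are samples by group, and colour is the log2 level minus the gene's mean in SNS. The decreases are deep in the 4 BYS samples and in BYA replicates 3 and 4 (medians -1.16 and -1.10), and near 0 in BNS, BYP and the other BYA samples.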

How the data were processed

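RNA of the arcuate nucleus was labelled with Cy3 or Cy5 and read on Agilent rat arrays with a sample of interest in each channel. The spots were extracted by the authors in Agilent Feature Extraction (version 10.7.3.1), and what they deposited is intensity on a relative linear scale, with no account in the sources used here of the background correction, spot filter and scaling. Of 44254 spots, 32107 had a value in all 20 samples. Log2 values were centred on the sample median over complete genes, which spanned 0.345. A gene was the mean of its complete spots (12493 genes) or its most complete spot (787), with at least 3 values a group. The 20 samples entered 1 fit in limma 3.58.1 (R 4.3.3) with group, dye and the array as a random block (correlation 0.436), and 7 contrasts. A gene was called at a Benjamini-Hochberg adjusted p under 0.05. The local trend was removed by subtracting, per sample, the median deviation of each of 70 blocks and centring again. Scripts were tested on simulated data. Precision is limited by the number of arrays.

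Named genes are the 15 largest increases and decreases with a value in all 8 samples and a level above the lowest 25%, up to 4 called members of a list in each direction, and a set named regardless of outcome; others are said to be named after their values were seen, and so are Jun, Egr4 and the uncalled list members. The members, lists and named genes were chosen with earlier results of these data known. Alternatives were other centring, filters, blocks, dye terms, samples left out and the unequal-variance test of the methods, whose fold criterion was not applied. Spots were named through the platform annotation and a rat gene table (RefSeq), used for names alone. Plots were drawn with matplotlib 3.10.9, and files were read with data.table (1.17.8) and pandas (2.3.3, Python 3.11.15).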

Additional observations from a re-analysis of the deposited data

Results flagged for a closer look

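Among 124 named genes, 13 of 248 groups of 4 samples (5.24%) held a sample that stood far from the other 3, and chance alone flags about 1 in 20. In Mgat2, SNS replicate 2 was at -3.50 against a nearest value of -1.07, and in F3, SNS replicate 1 was at 0.25 against 1.19. Of the 13, 5 were SNS replicate 4. It was high in Slc25a4 (6.25 against 5.74), Cxcl12, a chemokine (1.00 against 0.53), Vtn (2.59 against 1.68), Olig2 (3.18 against 2.64) and Jun (1.57 against 0.72). SNS replicate 2 stood apart in Mgat2, in Esam (-0.81 against -0.16) and in the initiation factor subunit Eif2b2 (4.02 against 3.62). BYS replicate 2 was high in Slc32a1 (5.46 against 4.67) and Jun (2.37 against 1.85). BYS replicate 1 was low in the mannosyltransferase Alg2 (-0.12 against 0.03), and BYS replicate 4 was low in Ccl3 (-0.14 against 1.70). All values are log2 levels.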

How the results depend on the processing

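The count of changed genes, 1007 (31.6% higher), moved with the processing. It was 2240 (44% higher) with quantile normalization, 2391 (51.3%) with no array block, 1925 (45.1%) with no dye term and 3016 (62.4%) with SNS replicate 2 taken as Cy3. With slide as the random block it was 218 (6.42%). A fit of BYS and SNS samples alone called 175 (3.43%). Removing the local trend left 199 (25.1%), removing it with slide as the random block left 3, and removing it in smaller blocks, an alternative chosen after seeing the data, left 131 (18.3%). In Cy5 samples alone limma called 0 genes, with 3043 at an unadjusted p under 0.05, and in Cy3 samples alone 865 (52.3%). The methods' t-test called 152 after adjustment and 2041 unadjusted. Leaving out 1 sample gave 650 to 1996 genes, 650 without SNS replicate 1 and 1996 without SNS replicate 2. Leaving out the array of BYS replicates 1 and 2 gave 597. Of the 1007, 80 were called also with both forms of trend removal (4 higher, 76 lower). The 4 higher were Mon2, Rbm38, Slc4a1 and Tf. Among the decreases named above, Bcat1, Ndufv1, Rpl18, Sem1, Slc25a38 and Stx1a passed with the local trend removed but not in the smaller blocks. Bcat1, Bex1, Dnajb9, Mrps7, Ppm1l, Sem1, Stx1a, Tusc3 and Wdr31 passed with the local trend removed, but not with slide as the random block. The 3 genes left by trend removal with slide as the random block were Mon2, Naa35 and Syt17, so no other decrease named above passed there.

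The replicate numbers follow the dye, and same-numbered BYS and SNS samples correlated at 0.461, -0.0572, 0.49 and 0.588 in their deviations. Differently numbered samples of 1 dye correlated much alike, at 0.477 (BYS 1, SNS 3), 0.463 (BYS 3, SNS 1) and 0.566 (BYS 2, SNS 4). SNS replicate 2 stood apart, at -0.0572 to 0.0639 with the BYS samples of either dye. The numbers were therefore not taken to pair the samples. With the replicate block 925 genes were called.

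Differences that changed sign are given here, and of the genes concerned those not called had no settled direction. With the brightest spot of a gene, Alg2 was at 0.0139, Rps6 at 0.091, Npy at 0.0996 and Ppm1l at 0.351. With the local trend removed, Psma7 was at 0.0281, Tsc22d3 at 0.00929 and Kiss1 at -0.0461, and with slide as a block as well at 0.0742, 0.0227 and -0.0896. In smaller blocks Bckdk was at 0.0396, Chrna1 at 0.222, Rgs5 at 0.0131, Slc25a20 at 0.146 and Ghrh at -0.0143. Actb was at -0.0586 with SNS replicate 2 taken as Cy3 and at -0.000125 in Cy3 samples alone, where Npy was at 0.0893. Kiss1 was at -0.0746 in Cy5 samples alone. Npy ran from -0.172 to 0.0965 over the fits without 1 sample, above 0 without BYS replicate 2, BYS replicate 4 or SNS replicate 3, and was at 0.249 when the array of BYS replicates 1 and 2 was left out. The cause was not tested. Of these genes, Alg2, Rps6, Ppm1l, Psma7, Bckdk, Chrna1, Rgs5 and Slc25a20 were called in the values as deposited.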
